A study of Oryza sativa with 80 samples.

Results

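Type A response regulators are the genes that plants switch on when cytokinin is sensed, and their products damp the same signal. Cytokinin, a hormone of cell division, greening and delayed leaf ageing, binds histidine kinase receptors in the membrane, phosphotransfer proteins carry the phosphate to the nucleus, and type B response regulators then act as transcription factors. Type A regulators accept the phosphate but lack the DNA-binding part, so that they work as negative feedback, and their transcripts are widely read as a gauge of cytokinin signalling. The 9 rice loci described here were taken by their locus IDs, out of 42189 genes in the count table, and are RR1 (LOC_Os04g36070), RR2 (LOC_Os02g35180), RR3 (LOC_Os02g58350), RR4 (LOC_Os01g72330), RR5 (LOC_Os04g44280), RR6 (LOC_Os04g57720), RR7 (LOC_Os07g26720), RR9 (LOC_Os11g04720) and RR10 (LOC_Os12g04500). The locus ID gives the chromosome, from chromosome 1 for RR4 to chromosome 12 for RR10. The rule that picks the loci uses no measured value. A RefSeq gene table listed a gene named OsRR with the same number on the same chromosome for 8 of the 9, and RR3 had no entry there.

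Poly(A) RNA was sequenced from the blade of the third leaf of rice (Oryza sativa) seedlings once that leaf was fully elongated. D40 leaves grew under a drought that limits growth, at 1.5 g water per g dry soil, and were held at 40 °C for 30 min before collection. W40 leaves grew well-watered, at 3 g per g, and had the same heat shock. D30 leaves grew under the drought and W30 leaves grew well-watered, both collected at 30 °C. All plants had 80% humidity and nights of 25 °C. Drought leaves were collected at 12 days and well-watered leaves at 10 days, so that leaf age and soil water cannot be told apart. Blades were cut into 7 segments, of which segment 2, toward the base, through segment 6, toward the tip, were sequenced, each library holding the matched segments of 3 leaves. There were 80 libraries of 16 leaf pools, with 4 pools in each treatment, and pools are the replicates. Whether pools came from separate sowings is not stated. The p-values for whole leaves and for single segments thus measure the spread between these pools.

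Library totals ran from 53398019 to 128636996 counts. The labels name a batch, which held 7 pools (batch 1, with 1 of the 4 W40 pools) or 9 pools (batch 2). It was fitted as a term, and within-batch values stand beside the main results because many responses differed between batches. Of the 4 mature-leaf markers, the 3 Rubisco small subunit loci averaged 2301 to 14738 CPM per treatment (counts scaled to the library total with TMM) and Rubisco activase 5355 to 12104 CPM. Rubisco activase split by batch, with treatment means of 1540 to 2220 CPM in batch 1 and 9170 to 15569 CPM in batch 2. The meristem gene OSH1 had 0 counts. Among the markers of dividing cells, PCNA averaged 5.85 to 8.42 CPM and the mitotic cyclin CYCB1;1 0.0556 to 0.0867 CPM.

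Levels between genes are compared per kilobase, with the length implied by the FPKM values that the authors deposited. In W30 leaves RR10 averaged 74.4 ± 20 and RR2 72.0 ± 26.3 CPM per kb (SD, n = 4 pools), RR4 32.6 ± 4.21 and RR9 29.6 ± 7.1, RR6 14.4 ± 5.79, RR1 2.06 ± 1.29 and RR3 1.01 ± 0.442. Of the neighbours in that order, RR10 and RR2, RR4 and RR9, and RR1 and RR3 changed order between pools. RR5 and RR7 lay far below. RR5 had 206 counts over all 80 libraries, in 25 of them, and RR7 had 3 counts in 2 libraries, so that RR7 was not tested. The filter on low counts passed 8 members in whole leaves and 7 in each segment, where RR5 also fell out. In D30 leaves RR2 led with 21.1 ± 2.75 CPM per kb, ahead of RR10 (12.8 ± 5.42), RR4 (12.6 ± 5.78), RR6 (6.3 ± 0.998) and RR9 (4.33 ± 2.16). In D40 leaves RR10 (34.7 ± 32.4), RR2 (32.1 ± 20.2), RR9 (22.5 ± 20.5) and RR4 (20.9 ± 15.6) had means closer together than their SDs, and RR6 had 16.1 ± 3.97. Within every D40 pool RR2 lay above RR4 and RR9, and RR10 lay above RR9. RR10 changed order with RR2 and with RR4 between batches, as did RR9 with RR4. RR9 was above RR6 in the D40 pools of batch 1 (40.8 and 39.7 against 12.4 and 12.9 CPM per kb) and below it in those of batch 2 (5.64 and 3.78 against 19.2 and 19.8 CPM per kb). In W40 leaves RR2 (71.1 ± 11.0) and RR10 (52.5 ± 11.6) were ahead of RR9 (38.0 ± 9.36), RR4 (33.4 ± 3.96) and RR6 (14.3 ± 4.31). The highest RR5 counts, 44 and 30, were in segment 6 of the batch 1 pools of D40. Summed over the family, the level was 128.8 ± 86.8 in D40, 212.4 ± 34.9 in W40, 58.8 ± 16.5 in D30 and 226.1 ± 56.1 CPM per kb in W30 leaves (SD, n = 4 pools each). RR2 made up 24.9 to 35.9% of that sum in the 4 treatments, and RR9 with RR10 made up 29.2 to 46.0%.

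**Figure D1:**
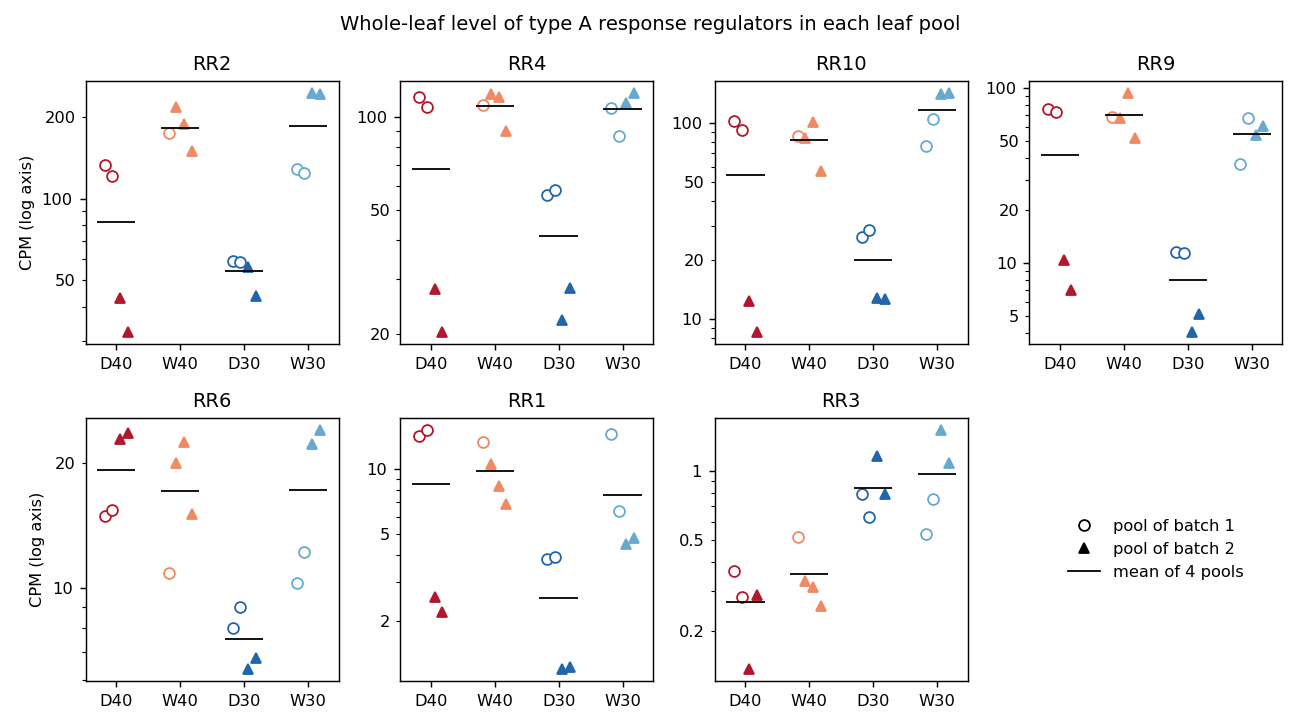
Whole-leaf level of 7 type A regulators in CPM on a log axis, 1 point per leaf pool (open circles batch 1, filled triangles batch 2), with a line at the mean of 4 pools in D40, W40, D30 and W30. All D30 pools of RR2, RR4, RR10, RR9, RR6 and RR1 lie below all W30 pools, and the D40 pools of RR2, RR4, RR10, RR9 and RR1 split by batch.

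Drought at 30 °C lowered most of the expressed family. RR9, RR10, RR2, RR1, RR4 and RR6 were lower in D30 than in W30 leaves, 6 of the 8 members tested. Genes as a whole were called far less often, 10.3% of 25103 either way and 5.01% lower (edgeR quasi-likelihood test, Benjamini-Hochberg adjusted p under 0.05). For these 6 members every D30 pool lay below every W30 pool. How often genes as a whole separate in this way was not counted. The median log2 change over the 8 members was -1.64, and over all genes tested 0.00263. In such bulk samples, fewer cells of a type and less RNA per cell cannot be told apart.

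RR9 and RR10 fell most. They are close duplicates on chromosomes 11 and 12, and rice lines lacking both have been reported to tolerate salt better. RR9 had 11.5, 11.4, 4.02 and 5.11 CPM in the D30 pools, against 36.8, 67.5, 54.1 and 60.9 CPM in the W30 pools. RR10 had 26.2, 28.4, 12.8 and 12.7 CPM in D30 pools, against 76.8, 104.8, 140.2 and 142.3 CPM in W30 pools. The D30 mean was thus 0.146 of the W30 mean for RR9 and 0.173 for RR10. The fitted log2 changes were -3.05 ± 0.555 for RR9 (SE, adjusted p = 0.0040) and -2.81 ± 0.592 for RR10 (adjusted p = 0.00922).

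RR2, which the root regulator WOX11 represses in rice crown roots, is among the most abundant members. It had 58.7, 58.3, 55.9 and 43.7 CPM in D30 pools, against 128.8, 124.0, 245.0 and 241.9 CPM in W30 pools, a log2 change of -1.82 ± 0.396 (adjusted p = 0.0111). The D30 pools were close together while the W30 pools separated by batch. RR4 had 56.2, 58.3, 22.1 and 28 CPM in D30 pools, against 106.8, 87.1, 111.2 and 119.5 CPM in W30 pools, a log2 change of -1.58 ± 0.393 (adjusted p = 0.0214). Here it was the D30 pools that separated by batch. Leaving out any 1 of the batch 2 pools of D30 or W30 left RR4 short of the threshold (highest adjusted p 0.0728).

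The less abundant RR1 and RR6 moved the same way. RR1, a target of the crown root factor CRL5, had 3.83, 3.94, 1.2 and 1.23 CPM in D30 pools, against 14.5, 6.39, 4.52 and 4.79 CPM in W30 pools (log2 change -1.70 ± 0.331, adjusted p = 0.00593). The highest D30 pool and the lowest W30 pool of RR1 were near each other. RR6, whose overexpression lowers the cytokinin response of rice, had 7.99, 9.02, 6.38 and 6.79 CPM in D30 pools, against 10.3, 12.2, 22.2 and 24.1 CPM in W30 pools (log2 change -1.07 ± 0.234, adjusted p = 0.0115). RR3 overlapped between the groups, with 0.843 ± 0.225 CPM in D30 and 0.969 ± 0.425 CPM in W30 pools (log2 change -0.20 ± 0.368, adjusted p = 0.778). RR5, at 0.0299 ± 0.049 CPM in D30 and 0.0117 ± 0.0123 CPM in W30 pools, was too low to show a difference (adjusted p = 0.468).

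The fall was found in both batches, and its estimate was larger in batch 2 for all 6 members, for RR1 not beyond the error (-0.51 ± 0.414). Fitted on batch 1 pools alone, RR2, RR4, RR9 and RR10 were lower, 4 members beside 6.83% of all genes, with log2 changes of -1.13, -0.775, -2.20 and -1.75. RR1 (-1.44, adjusted p = 0.065) and RR6 (-0.417, adjusted p = 0.103) missed the threshold there. On batch 2 pools alone all 6 were lower, beside 33.2% of all genes, with log2 changes from -1.82 (RR6) to -3.66 (RR9). A test of the difference between batches in the drought response was called for 5 members (RR2, RR4, RR6, RR9 and RR10), beside 12% of all genes. The largest difference was that of RR10, with -1.74 ± 0.333 for batch 2 minus batch 1 (adjusted p = 0.00822).

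Drought at 40 °C gave no call. The 8 members had log2 changes between -1.52 and 0.30 for D40 against W40 leaves, with 14.1% of all genes called either way. The lowest adjusted p was that of RR2, with 132.6, 121.5, 43.0 and 32.2 CPM in D40 pools, against 175.0, 217.6, 188.0 and 149.8 CPM in W40 pools (log2 change -1.28 ± 0.416, adjusted p = 0.0546). All D40 pools of RR2 lay below all W40 pools. RR1 (-1.06, adjusted p = 0.0574), RR4 (-1.17, adjusted p = 0.0758) and RR9 (-1.52, adjusted p = 0.0961) missed the threshold with overlapping pools. DESeq2 called RR1, RR2, RR4 and RR9 lower, and the same 4 were called by edgeR without the lone batch 1 pool of W40.

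The D40 pools fell into separate levels by batch. In batch 1 the D40 pools of RR9 held 75.5 and 73.5 CPM, whereas in batch 2 they held 10.4 and 7.01 CPM. The W40 pools had 68.1 CPM in batch 1 and 67.7, 93.8 and 52.1 CPM in batch 2. RR10 had 102.7 and 92.7 CPM in D40 pools of batch 1 and 12.4 and 8.6 CPM in those of batch 2, against 86.3 CPM in W40 for batch 1 and 83.5, 100.8 and 57.2 CPM for batch 2. For both genes the D40 pools of batch 1 lay above or within the range of the W40 pools, and those of batch 2 lay below all of them. RR4 (116.1 and 107.3 CPM in batch 1, 27.9 and 20.2 CPM in batch 2) and RR1 (14.1 and 15.1 CPM in batch 1, 2.58 and 2.19 CPM in batch 2) split in the same order.

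Batch 1 holds a single W40 pool, which the fit assumes to vary like the others, and with drought at 40 °C that fit called 1 of 25305 genes (0.00395%), so that its 0 calls among 8 members say little. Its estimates were log2 changes of 0.141 for RR1, -0.464 for RR2, 0.026 for RR4, 0.129 for RR9 and 0.177 for RR10. Within batch 2, 5 of 7 members were lower, beside 48.1% of all genes, with -1.86 for RR1, -2.31 for RR2, -2.19 for RR4, -3.04 for RR9 and -2.95 for RR10. In a fit to all 16 pools the difference between batches was itself called for these 5 members, beside 25.3% of all genes, and was largest for RR9 at -3.16 ± 0.491 (adjusted p = 0.00103). RR6 in D40 leaves had the opposite order, 14.9 and 15.4 CPM in batch 1 and 22.9 and 23.7 CPM in batch 2. The part of the batch in these values was not tested beyond these fits.

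Heat shock of drought leaves raised RR6, RR9 and RR1 and lowered RR3, 4 of 8 members, beside 34.4% of all genes called either way. RR6 had 14.9, 15.4, 22.9 and 23.7 CPM in D40 pools, against 7.99, 9.02, 6.38 and 6.79 CPM in D30 pools (log2 change 1.27 ± 0.233, adjusted p = 0.00115). Every D40 pool of RR6 lay above every D30 pool, and its D40 mean was 2.55 times the D30 mean. RR9 had 75.5, 73.5, 10.4 and 7.01 CPM in D40 pools, against 11.5, 11.4, 4.02 and 5.11 CPM in D30 pools (2.13 ± 0.538, adjusted p = 0.00801). RR1 had 14.1, 15.1, 2.58 and 2.19 CPM in D40 pools, against 3.83, 3.94, 1.2 and 1.23 CPM in D30 pools (1.53 ± 0.331, adjusted p = 0.00319). For RR9 and RR1 the pools overlapped across batches, and within each batch both D40 pools lay above both D30 pools.

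RR3, a low member, had 0.365, 0.282, 0.137 and 0.289 CPM in D40 pools, against 0.793, 0.627, 1.16 and 0.79 CPM in D30 pools (log2 change -1.64 ± 0.382, adjusted p = 0.00484). All its D40 pools lay below all D30 pools. The other members had intermediate values, with log2 changes of 1.18 ± 0.568 for RR10 (adjusted p = 0.123), 0.60 ± 0.382 for RR4 (adjusted p = 0.244) and 0.55 ± 0.389 for RR2 (adjusted p = 0.299). The median over the 8 members was 0.889, and over all genes -0.0496.

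RR10, RR2 and RR4 differed between batches in this comparison. Within batch 1, 7 members were called, beside 21.3% of all genes, and the 6 higher ones ran from 0.833 for RR6 to 2.70 for RR9, with RR10 at 1.84, RR2 at 1.12 and RR4 at 0.963. Within batch 2, 4 of 7 were called, beside 51.3% of all genes, with RR6 at 1.91, RR1 at 1.05, RR9 at 1.02 and RR3 at -2.12. There RR10 (-0.195), RR2 (-0.322) and RR4 (0.0246) were not called. The batch difference was called for RR2, RR4, RR6, RR9 and RR10, beside 27.4% of all genes. RR10 had the largest, at -2.12 ± 0.335 (adjusted p = 0.000818), while RR6 went the other way at 0.99 ± 0.221 (adjusted p = 0.00628).

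Heat shock of well-watered leaves moved RR3 and RR1. RR3 was lower, with 0.517, 0.331, 0.313 and 0.257 CPM in W40 pools, against 0.532, 0.755, 1.51 and 1.08 CPM in W30 pools (log2 change -1.45 ± 0.376, adjusted p = 0.00899). The W40 pools of RR3 all lay below the W30 pools, although the highest W40 and the lowest W30 pool nearly met. RR1 was higher, with 13.2, 10.5, 8.29 and 6.9 CPM in W40 pools, against 14.5, 6.39, 4.52 and 4.79 CPM in W30 pools (0.89 ± 0.331, adjusted p = 0.0494). Its pools overlapped, and the call was lost in 7 of 8 fits that left out 1 pool, all but the one without W40 replicate 1 (highest adjusted p 0.15). These were 2 of 8 members, a share not far from the 35.1% of all genes.

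The abundant members were not called with heat in well-watered leaves. RR2 averaged 182.6 ± 28.2 CPM in W40 and 184.9 ± 67.6 CPM in W30 leaves (SD, n = 4 pools), and RR4 108.5 ± 12.9 CPM in W40 and 106.1 ± 13.7 CPM in W30 leaves. RR6 averaged 17.1 ± 5.16 CPM in W40 and 17.2 ± 6.96 CPM in W30 leaves. RR9 averaged 70.4 ± 17.3 CPM in W40 leaves, against 54.8 ± 13.2 CPM in W30 leaves (log2 change 0.59 ± 0.512), whereas RR10 averaged 82 ± 18.2 CPM in W40 leaves, against 116.0 ± 31.3 CPM in W30 leaves (-0.39 ± 0.546). Within batch 1, with 1 W40 pool assumed to vary like the other pools, 0 members were called, beside 13.1% of all genes. Within batch 2, RR1 (0.972) was higher and RR3 (-2.02) and RR10 (-0.723) were lower, beside 52.9% of all genes. The response differed between batches for RR2 (-0.87 ± 0.264, adjusted p = 0.0341) and RR3 (-1.79 ± 0.544, adjusted p = 0.0334), beside 23.6% of all genes.

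The title of the study points to the interaction of drought and heat, a difference in heat response between drought and well-watered leaves. No member was called, and neither was any gene (0% of 25103 by edgeR, with 2841 genes at an unadjusted p under 0.05). RR6 came nearest, with a log2 difference of 1.36 ± 0.324 between the heat responses of drought and well-watered leaves (adjusted p = 0.141). DESeq2 called it (1.37, adjusted p = 0.0127), and so did fits to the batch-corrected counts, to the FPKM values and to batch 2 alone, where RR6 reached 2.08. RR10 (1.57 ± 0.794) and RR9 (1.54 ± 0.742) had similar differences with larger errors. Heat thus raised RR9 and RR6 past the threshold in drought leaves and not in well-watered leaves. In the main edgeR fit, however, a difference between those responses was not shown.

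Segment by segment, the drought response at 30 °C was found along the whole blade. Of 35 tests (7 members in 5 segments), 28 were lower, beside 7.06% of 109568 tests over all genes. RR9 had log2 changes of -3.64, -3.25, -3.03, -2.91 and -2.64 from segment 2 to segment 6, and RR10 -3.10, -3.10, -3.00, -2.60 and -2.41. RR2 went through -2.23, -2.04, -1.85, -1.67 and -1.40, and RR4 through -2.12, -1.86, -1.61, -1.42 and -1.15. In each of these 4 genes the estimate was closer to 0 at the tip than at the base, a difference that passed its own test along the blade for RR4 alone. RR6 missed the threshold in segment 5, RR1 in segment 6, and RR3 in all 5 segments. The count of 28 was 13 without D30 replicate 4, 18 without D30 replicate 3, 18 without W30 replicate 3 and 17 without W30 replicate 4.

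**Figure D2:**
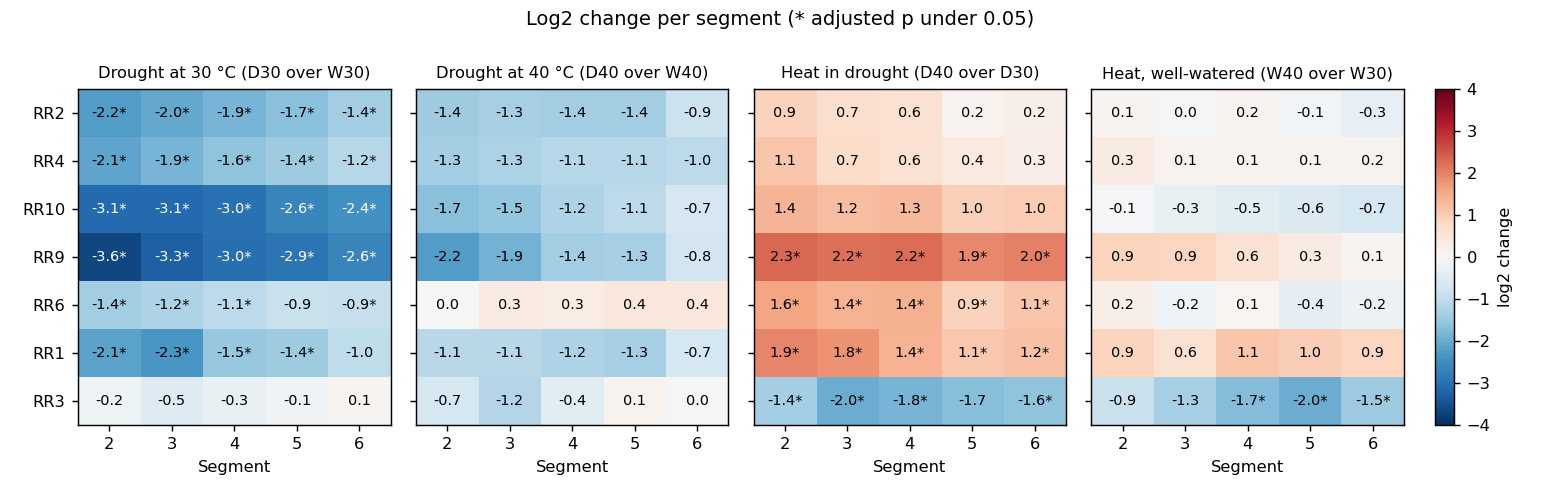
Log2 change of 7 type A regulators in each segment, from segment 2 (base) to segment 6 (tip), for the 4 comparisons. Colour gives the change and * marks an adjusted p under 0.05 by edgeR, which 28 of 35 tests reached with drought at 30 °C and 0 of 35 with drought at 40 °C.

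The other comparisons gave fewer calls by segment. Heat in drought leaves gave 19 calls of 35, beside 27.7% over all genes. RR1, RR6 and RR9 were higher in every segment, RR9 by 1.93 to 2.30 and RR6 by 0.94 to 1.58 on the log2 scale. RR3 was lower in segments 2, 3, 4 and 6. Heat in well-watered leaves gave 3 calls, all of RR3 (segments 4, 5 and 6, -1.72, -1.97 and -1.46), beside 28.5%. Drought at 40 °C gave 0 calls, beside 9.15%, and the interaction 0, beside 0.00639%. Leaving out W40 replicate 1 gave 11 calls with drought at 40 °C.

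Level along the blade was then compared within pools, as segment 6 minus segment 2. Errors and p-values of slopes and of slope changes come from single libraries after the pool level is removed. They treat the segments of a pool as independent, and so may understate how slopes vary between pools and batches. In W30 leaves RR1 was lower at the tip (log2 -0.96 ± 0.193, adjusted p = 0.0001), RR2 slightly lower (-0.41 ± 0.141, adjusted p = 0.0228) and RR6 slightly higher (0.34 ± 0.126, adjusted p = 0.0331), 3 members beside 31.2% of 23888 genes. Each of 4 fits without 1 W30 pool called 2 members, and on batch 2 alone the W30 slope of RR6 had the other sign. In D30 leaves 4 members were higher at the tip, beside 18.6%, namely RR4 (0.99 ± 0.11, adjusted p = 1.22e-09), RR9 (0.77 ± 0.18), RR6 (0.74 ± 0.129) and RR10 (0.53 ± 0.138). In W40 leaves 4 were lower at the tip, beside 35%, namely RR1 (-1.02), RR2 (-1.01 ± 0.143), RR9 (-0.81 ± 0.171) and RR10 (-0.80 ± 0.137). D40 leaves had RR9 higher (0.50 ± 0.174, adjusted p = 0.0279) and RR1 lower at the tip (-0.52 ± 0.196, adjusted p = 0.044), beside 24.5%. Of 4 fits without 1 D40 pool, RR9 was called in 2 (adjusted p up to 0.226) and RR1 in 1 (up to 0.333), and neither was called without D40 replicate 2 or on batch 2 alone. RR9 and RR10 thus sloped upward in D30 leaves and downward in W40 leaves. On batch 1 alone, with its single W40 pool, 0 slopes were called in W40. The D30 slope of RR9 was 0.193 within batch 1 and 1.55 within batch 2, and that of RR10 was 0.121 and 0.961 in the same order.

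**Figure D3:**
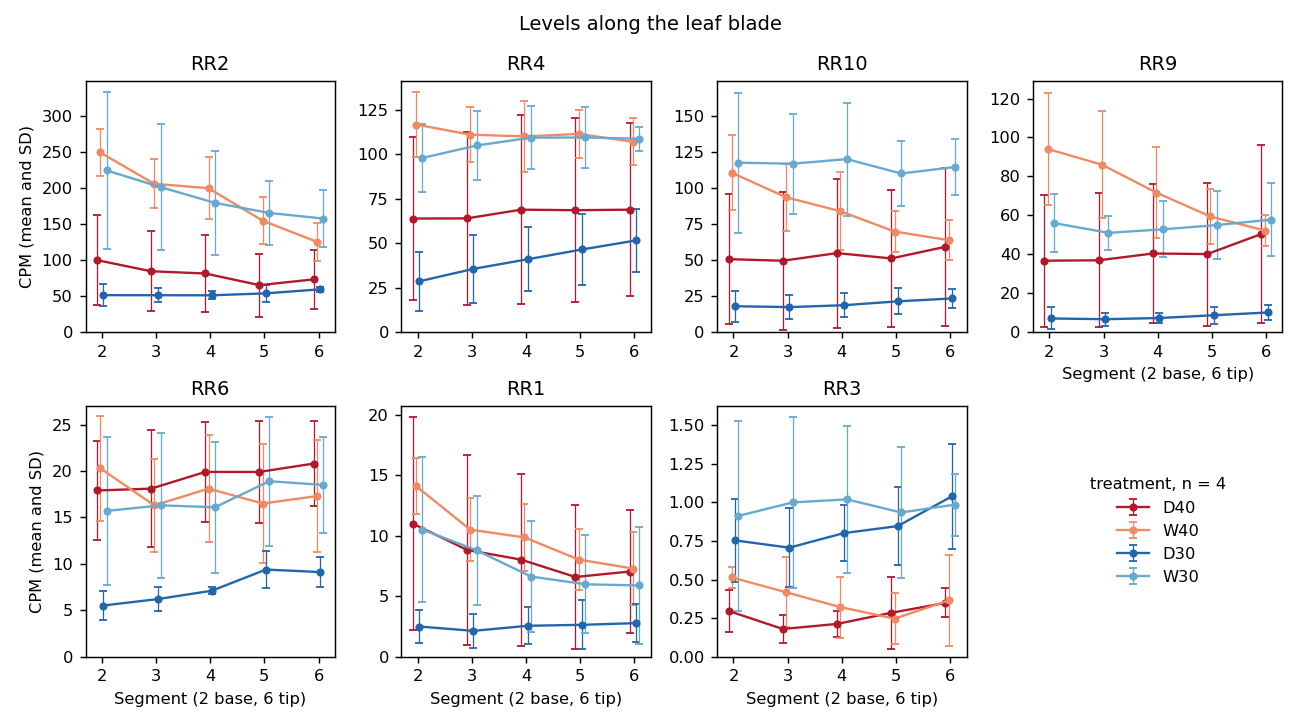
Mean CPM of 7 type A regulators from segment 2 (base) to segment 6 (tip) in D40, W40, D30 and W30 leaves, with bars of 1 SD over 4 pools. RR9 in W40 leaves declines along the blade, with means of 94.1 CPM at segment 2 and 52.2 CPM at segment 6.

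The slope itself changed with treatment for several members. Drought at 30 °C changed it for RR1 (1.11 ± 0.278, adjusted p = 0.0184) and RR4 (0.82 ± 0.154, adjusted p = 0.00143), beside 2.61% of all genes. RR4 averaged 28.6, 35.6, 41.0, 46.5 and 51.6 CPM from segment 2 to segment 6 in D30 leaves, against 98.0, 105.0, 109.4, 109.5 and 108.8 CPM in W30 leaves. It climbed along the whole blade under drought and was nearly level in well-watered leaves. The RR4 change was 0.235 within batch 1 and 1.48 within batch 2, and the RR1 change was not called without D30 replicate 3 (adjusted p = 0.067).

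Drought at 40 °C changed the slope of RR9 (1.31 ± 0.244, adjusted p = 0.000414), RR10 (0.90 ± 0.194, adjusted p = 0.00226) and RR2 (0.65 ± 0.200, adjusted p = 0.0353), beside 7.05% of all genes. RR9 averaged 36.7, 36.9, 40.4, 40.1 and 50.4 CPM in D40 leaves, against 94.1, 86.0, 71.7, 59.4 and 52.2 CPM in W40 leaves. The D40 means stand between separate batch levels. At segment 6 the D40 pools held 81.6 and 97.9 CPM in batch 1 and 11.6 and 10.6 CPM in batch 2, against 58.1 CPM in W40 for batch 1 and 54.2, 56.4 and 40.3 CPM for batch 2. Within batch 1, with its single W40 pool, the slope changes were 0.929 for RR9, 0.55 for RR10 and -0.01 for RR2, none called, and within batch 2 they were 1.46, 0.903 and 0.942, all called. RR9 and RR10 kept the call in 8 of 8 fits without 1 pool, and RR2 in 3 of 8. Heat in well-watered leaves lowered the slope of RR9 (-0.85 ± 0.241, adjusted p = 0.0349), RR10 (-0.84 ± 0.192, adjusted p = 0.00552) and RR6 (-0.61 ± 0.178, adjusted p = 0.0421), beside 3.52%, with calls kept in 3, 5 and 3 of 8 such fits. Heat in drought leaves lowered that of RR4 (-0.84 ± 0.155, adjusted p = 0.00366), beside 0.188%, in 7 of 8 fits.

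RR9 and RR10 did not keep the same ratio to each other. RR9 counts over RR10 counts were 0.735, 0.793, 0.84 and 0.815 in D40 pools, against 0.439, 0.402, 0.315 and 0.402 in D30 pools. They were 0.789, 0.81, 0.93 and 0.91 in W40 pools, against 0.479, 0.644, 0.386 and 0.428 in W30 pools. Every heated pool was above every unheated pool of the same watering. On the log2 scale the ratio differed by 1.04 with heat in drought leaves (0.86 within batch 1, 1.22 within batch 2) and by 0.85 with heat in well-watered leaves (0.51 within batch 1, 1.12 within batch 2). A 2-sided exact permutation test gave p = 0.0286 for each, the smallest that 4 pools against 4 can give, or 0.0572 after adjustment over the 4 comparisons made. Unlike the fits, this test shuffled pools across batches and took no account of batch. With drought the log2 ratio differed by -0.30 at 30 °C (exact permutation p = 0.2) and by -0.11 at 40 °C (exact permutation p = 0.257). This ratio was chosen after its values were seen, and because the copies are nearly identical, how the counting divided their reads makes each level uncertain. Counted as 1 gene, RR9 and RR10 fell with drought at 30 °C (-2.88 ± 0.577, adjusted p = 0.00689) and were called higher with heat in drought leaves (1.52 ± 0.555, adjusted p = 0.0473). The second call came with a batch split. In batch 1 RR9 averaged 74.5 CPM in D40 and 11.4 CPM in D30 leaves and RR10 97.7 CPM in D40 and 27.3 CPM in D30 leaves. In batch 2 RR9 averaged 8.71 CPM in D40 and 4.56 CPM in D30 leaves and RR10 10.5 CPM in D40 and 12.8 CPM in D30 leaves.

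**Figure D4:**
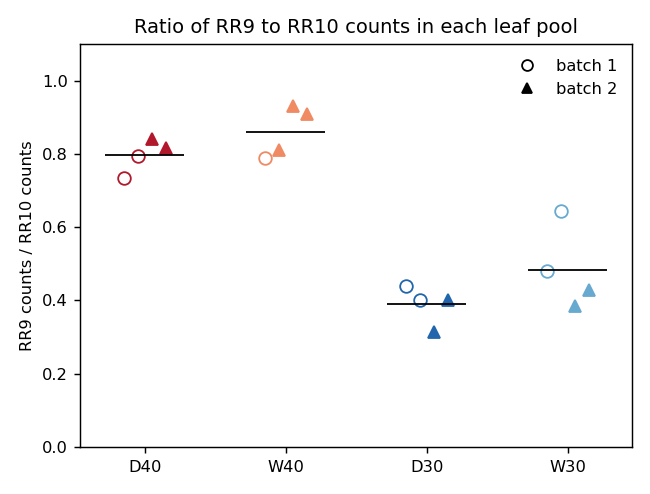
RR9 counts divided by RR10 counts in each leaf pool of D40, W40, D30 and W30, with the 2 batches marked. The heated pools run from 0.735 to 0.93 and the unheated pools from 0.315 to 0.644.

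Across the 20 group means (4 treatments by 5 segments, on the log2 scale), the 6 members with a mean of at least 5 CPM (RR1, RR2, RR4, RR6, RR9 and RR10) had pairwise Pearson correlations between 0.47 and 0.96, with a median of 0.84. RR3, which passed the filter at a lower level, had correlations with these 6 between -0.45 and 0.15. Among the 6, RR4 with RR10 and RR2 with RR10 had the highest (0.96 each) and RR2 with RR6 the lowest. The points share libraries, pools and batches, so that these values are a description. Among 12837 genes with a mean of at least 5 CPM, those most like RR2 were LOC_Os03g54000 (r = 0.982) and LOC_Os03g10510 (r = 0.971). RR10 ranked 8th in likeness to RR2, RR4 41st and RR6 2078th.

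Other cytokinin genes were counted over lists of 33 loci, of which 32 were in the files. Cytokinin oxidases (CKX), which break the hormone down and are themselves often induced by it, were lower in 4 of 7 tested loci with drought at 30 °C, where 5.01% of all genes were lower (median log2 change -2.12). CKX9 averaged 3.69 ± 1.39 CPM in D30 and 18.3 ± 8.6 CPM in W30 leaves (-2.27 ± 0.232, adjusted p = 0.00015). CKX3 averaged 1.02 ± 0.514 CPM in D30 and 13.5 ± 2.86 CPM in W30 leaves (-4.10 ± 0.62, adjusted p = 0.0013). CKX8 (-2.12) and CKX2, the grain number gene Gn1a (-5.08), were the others. CKX8 was very low, at 0.0362 CPM in D30 and 0.161 CPM in W30 leaves. Most tested members of both groups, oxidases and type A regulators, were thus lower in D30 than in W30 leaves. The 4 oxidases had lower mean CPM in D30 than in W30 leaves within each batch, and CKX2 had 0.0406 CPM in D30 and 0.471 CPM in W30 leaves of batch 1, and 0.136 CPM in D30 and 8.06 CPM in W30 leaves of batch 2.

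Of 5 tested synthesis loci, the isopentenyltransferases IPT4 (-2.87, adjusted p = 0.0291) and IPT7 (-2.76, adjusted p = 0.0264) were lower with drought at 30 °C. IPT4 was very low, at 0.0594 CPM in D30 and 0.439 CPM in W30 leaves. CYP735A4, of the family that makes trans-zeatin, was higher (2.66, adjusted p = 0.00919). It averaged 0.342 CPM in D30 and 0.186 CPM in W30 leaves of batch 1, and 6.71 CPM in D30 and 0.451 CPM in W30 leaves of batch 2. LOG, an activating enzyme, averaged 481.5 ± 209.9 CPM in D30 and 495.2 ± 119.9 CPM in W30 leaves. Upstream of the type A regulators, 0 of 4 receptors and 0 of 2 phosphotransfer loci were called, and 1 of 5 type B loci was higher (RR26, 0.66, adjusted p = 0.00452), beside 10.3% of all genes called either way. With drought at 40 °C, CKX8 (-1.83), CKX9 (-2.47) and the receptor HK6 (-0.74) were lower, 3 of 23 tested loci beside 14.1% of all genes. HK6 averaged 19.8 CPM in D40 and 17.5 CPM in W40 leaves of batch 1, the other direction, and 11.4 CPM in D40 and 26.4 CPM in W40 leaves of batch 2.

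Heat moved 34.4% of all genes in drought leaves and 35.1% in well-watered leaves. The pathway loci it moved included CYP735A4 and RR26, which were also called with drought at 30 °C. In drought leaves CKX4 (1.01), the receptor HK4 (0.81), the phosphotransfer gene AHP2 (0.43) and the type B gene RR24 (0.30) were higher, and AHP1 (-0.68) and RR26 (-0.73) were lower. In well-watered leaves CKX5 (1.80), CYP735A4 (1.97) and RR24 (0.71) were higher and AHP1 (-0.75) was lower. AHP1 averaged 8.62 CPM in W40 and 8.63 CPM in W30 leaves of batch 1, and 3.98 CPM in W40 and 8.97 CPM in W30 leaves of batch 2. Among the leaf markers, 1 of 4 was lower with drought at 30 °C, a Rubisco small subunit locus (-0.78, adjusted p = 0.0437), beside 10.3% of all genes, and the list median was -0.794. The same number was lower with drought at 40 °C (-0.76, adjusted p = 0.0451). PCNA, a marker of dividing cells, was lower with drought at 40 °C (-0.55, adjusted p = 0.0123) and with heat in drought leaves (-0.42, adjusted p = 0.0176). Their part in the values of the type A regulators was not tested.

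**Figure D5:**
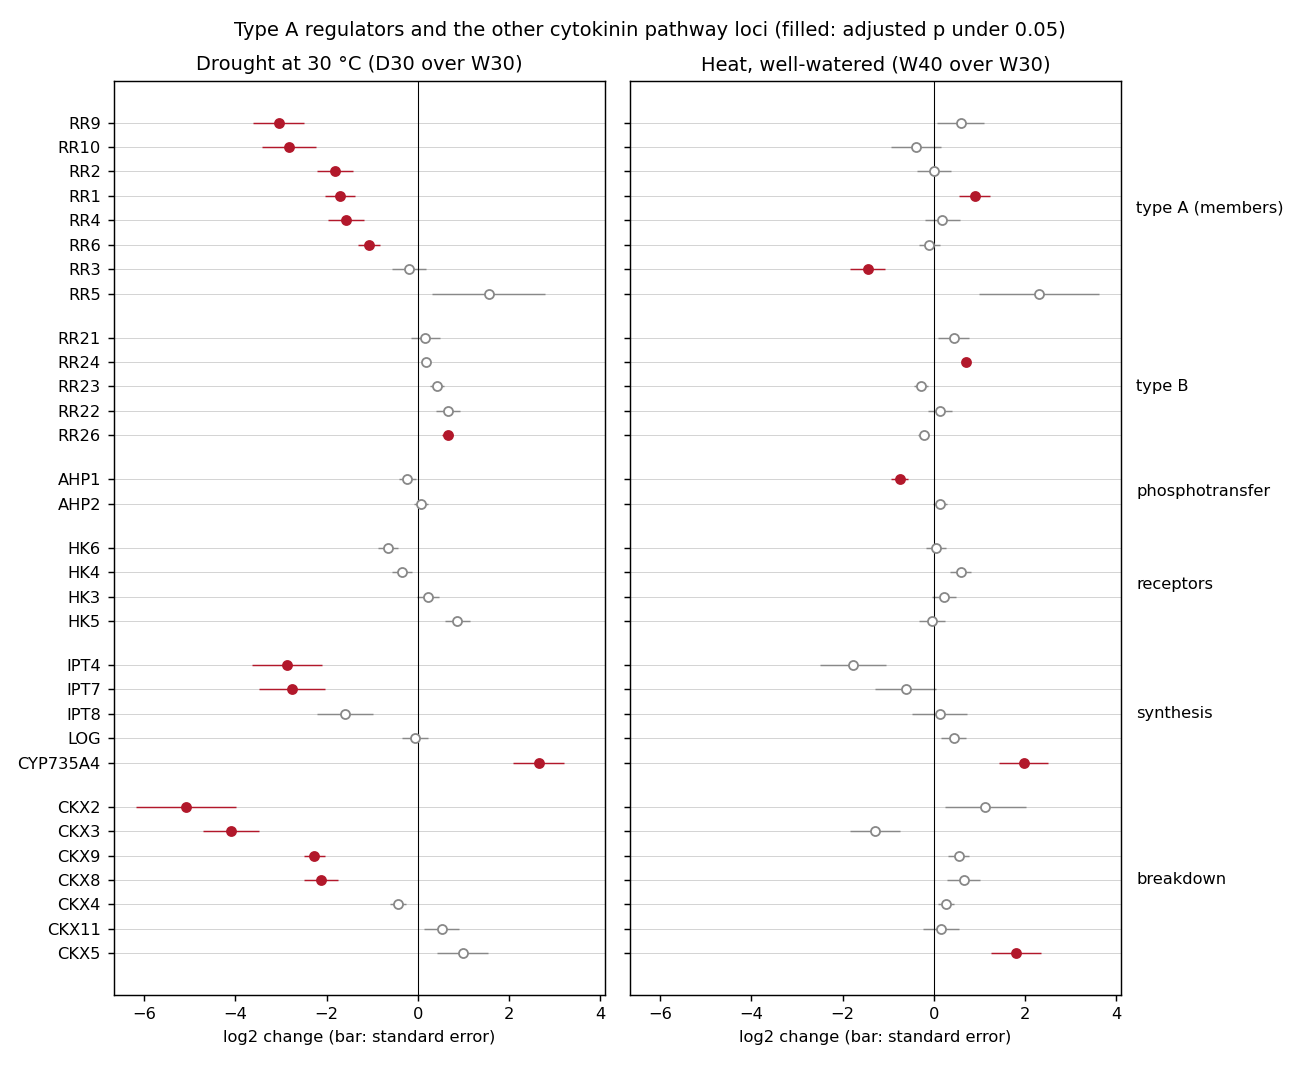
Log2 change with its SE of each tested cytokinin pathway locus, for drought at 30 °C and for heat in well-watered leaves. Filled points have an adjusted p under 0.05, and with drought at 30 °C they include 6 type A regulators and 4 oxidases, all lower.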

How the data were processed

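Reads were processed with HISAT2 2.2.1, featureCounts 2.0.6 and Picard 3.1.0, per the submitters' processing notes, and for the genome build the sources used here give nothing. Tables of raw counts, of estimated counts after batch correction and of FPKM values were deposited by the authors, with a column for each library, per the file headers. Of raw counts from 1 to 20, 76.9% were even, and why was not tested, so that the counts may overstate independent fragments. No 2 libraries of a group matched within sampling noise (lowest chi-square per degree of freedom 9.57 over 120 pairs).

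Counts were fitted in R 4.3.3 with edgeR 4.0.16 (TMM, filterByExpr with minimum count 10 and total 15, quasi-likelihood F tests, Benjamini-Hochberg adjustment over all genes, threshold 0.05). Whole-leaf fits summed the 5 segments of each of 16 pools, with treatment and batch as terms. Segment fits used the 16 libraries of a segment. Fits along the blade used 80 libraries with the pool as a block. A standard error is the size of the log2 change over the square root of F, and is approximate. Lengths for levels per kb were implied by the FPKM values. The procedure was tested on simulated data.

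The alternatives were DESeq2 1.42.0, its size factors, limma 3.58.1 on log2(FPKM + 0.1), batch-corrected counts rounded to whole numbers, halved counts, no filter, each batch alone, a linear trend over segments, the replicate block and leaving out each pool. Deviations of pools with the same replicate number in different treatments had a median correlation of -0.2 over 24 pairs (0.08 for other numbers), so that numbers do not pair treatments. Members, lists and rules were chosen with earlier results of these data known. All 9 members are named, and by rule each pathway locus past the threshold, up to 4 more per list and comparison with the smallest adjusted p, and the 2 genes most like the most abundant member. Names of members and pathway loci come with the lists, and the pathway lists were written from general knowledge. A RefSeq table (ASM3414082v1) was used for names only. It held the same name and chromosome for 12 pathway loci. For 21 it had no entry, among them all synthesis and type B loci. One planned pathway locus, sequences and coordinates were not analysed here.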

Additional observations from a re-analysis of the deposited data

Results flagged for a closer look

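Some libraries stood apart from the other 3 of their group by a gap larger than Dixon's critical share of the group's range. Chance gives this in about 1 in 20 groups, and it was met in 1 of 32 whole-leaf groups and 9 of 146 segment groups. In whole leaves it was RR5 in D30 replicate 1, at 0.103 CPM. By segment it was RR1 in segment 3 of W30 replicate 1 (15.5 CPM), RR2 in segment 4 of D30 replicate 4 (42.8 CPM), RR3 in segment 4 of D30 replicate 3 (1.07 CPM) and RR4 in segment 6 of W40 replicate 2 (126.8 CPM). RR6 in segment 3 of D30 replicate 2 (8.12 CPM) and RR9 in segment 2 of W40 replicate 3 (137.1 CPM) also stood apart. The others were RR5 in segments 5 and 6 of D30 replicate 1 (0.106 and 0.284 CPM) and in segment 4 of D40 replicate 2 (0.126 CPM), a locus near 0 in most libraries.

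The slope along the blade differed between treatments by its own test in 9 cases, as log2 differences of segment 6 minus segment 2. With drought at 30 °C these were RR1 (1.11) and RR4 (0.82), and with drought at 40 °C RR9 (1.31), RR10 (0.90) and RR2 (0.65). With heat in well-watered leaves these were RR9 (-0.85), RR10 (-0.84) and RR6 (-0.61), and with heat in drought leaves RR4 (-0.84).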

How the results depend on the processing

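Of the values of single members under the alternatives, 658 in whole leaves, 2777 by segment and 823 along the blade kept their direction and side of the threshold. In the same order 19, 144 and 80 lost a call, 39, 175 and 45 gained one, and 33, 156 and 57 changed sign with neither value called, as did RR9 and RR10 with drought at 40 °C in batch 1. A change of sign with either value called, a reversal here, occurred 0, 3 and 3 times. Counts of members called are given by setting, and a percentage in brackets is the share called over all genes in the same setting.

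On batch 1 alone, heat in drought leaves gave 7 calls in whole leaves (21.3%) and 29 by segment (14.1%). Along the blade there were 2 in D30 (16.2%), and the slope changed in 1 with drought at 30 °C (4.09%). Comparisons with W40 rest on a single pool in batch 1, and their counts are left out of this list. On batch 2 alone, whole leaves gave 5 with drought at 40 °C (48.1%) and 1 interaction (16.8%). Segments gave 25 with drought at 40 °C (36.2%), 14 with heat in well-watered leaves (43.3%) and 5 interactions (7.52%). Along the blade there were 0 in D40 (14.7%). The slope changed in 6 with drought at 30 °C (13.9%), 1 with heat in well-watered (6.06%) and 2 with heat in drought leaves (0.334%). RR5 could not be tested there.

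Batch-corrected counts gave 7 whole-leaf calls for heat in drought leaves (39.4%), 2 for drought at 40 °C (14.1%) and 1 interaction (0.676%). By segment they gave 30 (30.4%) and 5 (7.48%) for the first 2, and along the blade 1 slope change with heat in well-watered leaves (2.18%). DESeq2 gave 4 whole-leaf calls for drought at 40 °C (22.3%) and 1 interaction (1.88%), and by segment 18 (16.2%), 3 interactions (0.915%) and 8 for heat in well-watered leaves (34.1%). Its size factors, and halved counts, each gave 1 for drought at 40 °C. FPKM values gave 1 for heat in well-watered leaves (41.4%), 3 for drought at 40 °C (12.7%) and 1 interaction (1.2%) in whole leaves. By segment they gave 5 for drought at 40 °C (6.63%) and 2 interactions (0.215%). Slope changes were 1 with heat in well-watered (2.55%) and 2 with heat in drought leaves (0.494%). No filter gave 1 whole-leaf call for heat in well-watered leaves (24.4%) and 4 by segment for drought at 40 °C (6.64%). A linear trend gave 5 slope changes with drought at 30 °C (5.89%). The causes were not tested.

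With the replicate block, whole leaves gave 5 calls for drought at 30 °C (5.63%) and 1 for heat in well-watered leaves (22.7%), and segments gave 19 (3.74%) and 0 (17.3%). Without the pool as block (no replicate block), all 8 results along the blade had 0 calls (0% to 13.5%).

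Leaving out 1 pool gave, in whole leaves, 5 to 6 calls for drought at 30 °C, 0 to 4 for drought at 40 °C, 4 to 5 for heat in drought leaves, 1 to 2 for heat in well-watered leaves and 0 for the interaction. Segments gave 13 to 29, 0 to 11, 13 to 24, 0 to 7 and 0 in the same order. Slope changes numbered, over the 4 comparisons in that order, 1 to 6, 2 to 4, 0 to 2 and 0 to 3, and slopes 0 to 2 in D40, 4 to 5 in W40, 2 to 4 in D30 and 2 to 2 in W30. The share called over all genes is not given for these fits.

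Reversed values came from batch 2 alone for heat in drought leaves in RR2 (-0.83 in segment 5, -0.72 in segment 6) and RR10 (-0.64 in segment 6), and for the W30 slope of RR10 (-0.38) and RR6 (-0.0084). From batch 1 alone, the RR2 slope change with drought at 40 °C was -0.013.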
